A study of Homo sapiens with 20 samples.

Results

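Thioredoxin-interacting protein (*TXNIP*), the alpha-arrestin genes *ARRDC2*, *ARRDC3* and *ARRDC4*, and the glucose-sensing transcription factor genes *MLXIP* and *MLXIPL* were followed in human pancreatic cells with and without the m6A demethylase ALKBH5. The 6 genes were chosen by name, and each one was found by its Ensembl identifier among the 60623 identifiers measured in pancreatic progenitors (PPs) and the 60624 measured in human islet-like organoids (hILOs). All cells derived from the human embryonic stem cell line MEL1, given in the study's methods as MEL1 INS GFP/W, a reporter line with GFP in 1 allele of the insulin gene. They were either without further editing (WT) or carried a CRISPR-Cpf1 knockout of *ALKBH5* (A5-KO), and the labels do not say how many knockout lines the libraries represent. The hILOs were aggregates, and the labels of these libraries list differentiation media up to day 22, whereas the study's protocol has a further medium after it. There were 2 hILO libraries for each genotype. The PPs were day 14 cells given 1 µg per ml of actinomycin D (Act D), which blocks transcription. Cells were taken before Act D (0 h) and after 1 h, 2 h or 3 h of it, and 2 libraries for each genotype and time made 16 in all.

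Alpha-arrestins are adaptor proteins that bind membrane proteins and bring ubiquitin ligases of the NEDD4 family to them. TXNIP belongs to this family, and it also binds thioredoxin and lowers glucose uptake. MondoA, encoded by *MLXIP*, and ChREBP, encoded by *MLXIPL*, form dimers with MLX and switch on *TXNIP* and *ARRDC4* when glucose metabolites accumulate, so *TXNIP* and *ARRDC4* are widely used as readouts of glucose sensing. In pancreatic β cells TXNIP is known as a glucose-induced factor that promotes cell death. ALKBH5 removes the m6A mark from RNA, and m6A can mark a transcript for decay. How long a transcript lasts after Act D was therefore the question asked of PPs, and how its level differs between genotypes was the question asked at both stages.

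The 250 bases before the start of *TXNIP* and of *ARRDC4* are shown because both genes respond to the same factors through E-boxes. The stretches are RefSeq promoters on GRCh38 in the direction of the gene, at chr1:145996580-145996829 (minus strand) and chr15:97960453-97960702 (plus strand). Capitals mark E-box matches, found on either strand.
TXNIP: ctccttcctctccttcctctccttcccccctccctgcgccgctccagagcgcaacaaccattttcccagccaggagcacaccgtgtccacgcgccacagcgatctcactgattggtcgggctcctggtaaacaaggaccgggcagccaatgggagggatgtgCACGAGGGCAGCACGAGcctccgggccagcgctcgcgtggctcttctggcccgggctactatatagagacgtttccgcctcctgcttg
ARRDC4: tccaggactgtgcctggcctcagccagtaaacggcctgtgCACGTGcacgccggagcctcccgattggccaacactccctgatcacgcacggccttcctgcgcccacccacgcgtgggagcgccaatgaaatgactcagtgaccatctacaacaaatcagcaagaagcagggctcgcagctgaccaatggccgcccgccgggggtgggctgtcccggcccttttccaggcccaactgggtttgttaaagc
The *TXNIP* match is a pair of CACGNG boxes with 5 bases between them, the layout of a carbohydrate response element, and lies at -88 to -72 from the start. Only 20 of 35116 RefSeq promoters of 300 bases held that layout (0.057%), and among the members' promoters no other one did. The *ARRDC4* match is a single palindromic CACGTG, at -210 to -205 from the start, a sequence held by 7.26% of promoters. Promoters were found for all 6 genes, with a second start for *TXNIP*, *ARRDC2* and *ARRDC3*. A match is a description of these letters and not a measured binding site.

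On GRCh38, *TXNIP* (ENSG00000265972) lies on chromosome 1 at 145992435 to 145996579 on the minus strand, and *ARRDC4* (ENSG00000140450) on chromosome 15 at 97960703 to 97973833 on the plus strand. *ARRDC3* (ENSG00000113369) is at 91368631 to 91383317 on chromosome 5, minus strand, and *ARRDC2* (ENSG00000105643) at 18001132 to 18014102 on chromosome 19, plus strand. *MLXIP* (ENSG00000175727) is at 122078756 to 122147344 on chromosome 12, plus strand, and *MLXIPL* (ENSG00000009950) at 73593194 to 73624543 on chromosome 7, minus strand. The 4 alpha-arrestin transcripts share a layout of 8 exons with coding regions of 1173 to 1254 bases, whereas *MLXIP* and *MLXIPL* have 17 exons each. Exons of *ARRDC3* overlap the antisense RNA *ARRDC3-AS1*, and exons of *ARRDC2* overlap an unnamed antisense locus. The kit the labels name for these libraries (NEBNext Ultra RNA) is not stated to keep strand, so *ARRDC3* reads cannot be told apart from its antisense partner, which was listed at 0.116 to 0.709 TPM in hILOs and 0.38 to 1.61 CPM in PPs.

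*ALKBH5* followed the labels in hILOs and untreated PPs. WT hILOs held 78.8 and 81.9 TPM and A5-KO hILOs 4.16 and 3.42 TPM, and untreated PPs held 149 and 172 CPM if WT and 19.1 and 18.8 CPM if A5-KO. Under Act D, WT PPs fell from 133 and 125 CPM of *ALKBH5* at 1 h to 48.3 and 33.7 CPM at 3 h (-1.67, limma adjusted *p* = 2.5e-04). A5-KO PPs held 8.98 and 7.43 CPM of it at 3 h. PP libraries held 30516384 to 35206514 reads, recovered from the CPM steps, while TPM keeps no depth. Replicates differed by more than read counting alone, most of all the WT libraries at 2 h. The PPs expressed pancreatic progenitor genes such as *PDX1* and *SOX9*, and almost no endocrine genes (3.31 to 4.88 CPM at 0 h over 10 markers). The 9 progenitor markers summed to 1023 to 1303 CPM in WT and 957 to 1054 CPM in A5-KO at 0 h. The hILOs expressed all 10 endocrine markers, and also the 10 hepatic markers. The study describes the 2 replicates of its PP decay RNA-seq as biological, and the labels do not say that libraries came from separate cultures. The *p*-values measure only the spread between these samples, which may be technical. In bulk RNA, fewer cells of a type and less RNA per cell cannot be told apart.

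In hILOs, *TXNIP* had the largest fall of the alpha-arrestin genes in A5-KO, and *ARRDC3* a smaller fall that did not pass. The WT libraries measured 63.1 and 62.7 TPM and the A5-KO libraries 26.4 and 26.5 TPM. The genotypes stood far apart and the replicates nearly coincided. The change was -1.22 on the log2(TPM + 1) scale (s.e. 0.05, limma adjusted *p* = 0.0033), a level 0.429 times that of WT. A gene is called here when its *p*, adjusted over all genes by the Benjamini-Hochberg method, is under 0.05 and it differs by more than 1.5-fold. *TXNIP* was the single member called, and it was called in all 9 alternatives (-1.25 to -1.16). Of all 17300 genes tested 4.09% were called lower, and their median was -0.06.

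*ARRDC4*, the other classical MondoA and ChREBP target of the group, lay on the opposite side. WT libraries held 50.7 and 49.2 TPM of it and A5-KO libraries 75.9 and 73.4 TPM, without overlap. The difference was 0.57 (s.e. 0.05, limma adjusted *p* = 0.011), or 1.48 times WT, which passed the limit on *p* and stopped just short of the limit on size. Both other scalings carried it over that limit, with 0.63 under median-of-ratios scaling and 0.60 under quantile normalization.

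The ratio of *TXNIP* to *ARRDC4* within a library does not depend on scaling and was formed after their values were seen. It was 1.24 and 1.28 in WT hILOs and 0.348 and 0.36 in A5-KO hILOs, so *TXNIP* was the more abundant transcript per length in WT and *ARRDC4* in A5-KO. The log2 difference was -1.83. With 2 libraries against 2, the exact permutation test gave *p* = 0.33 (two-sided), the smallest it can give.

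The remaining alpha-arrestin genes were lower in level. *ARRDC3*, an adaptor known for the β2-adrenergic receptor, had 28.1 and 26.5 TPM in the WT libraries against 21.6 and 20.6 TPM without ALKBH5. Both A5-KO libraries lay below both WT libraries, with a difference of -0.36 (s.e. 0.08, limma adjusted *p* = 0.056) that did not pass. *ARRDC2* was scarce, with 1.84 and 1.17 TPM in the WT libraries and 2.87 and 4.76 TPM in the others. Its difference of 0.92 was large but uncertain (s.e. 0.29, limma adjusted *p* = 0.12).

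Of the glucose-sensing factors, *MLXIPL* was the abundant one in hILOs. ChREBP transcripts reached 45.7 and 37.6 TPM (WT) and 67.0 and 55.5 TPM (A5-KO), a difference of 0.55 (s.e. 0.14, limma adjusted *p* = 0.082). The genotypes did not overlap, but the spread within each was wide and the test was not passed. *MLXIP* reached 7.18 and 7.37 TPM (WT) and 4.94 and 8.09 TPM (A5-KO), so the A5-KO libraries enclosed the WT libraries (difference -0.17, s.e. 0.24, limma adjusted *p* = 0.67). Ranked by TPM, the order in WT was *TXNIP*, *ARRDC4*, *MLXIPL*, *ARRDC3*, *MLXIP* and *ARRDC2*, and in A5-KO *ARRDC4*, *MLXIPL*, *TXNIP*, *ARRDC3*, *MLXIP* and *ARRDC2*. No neighbours in either order had overlapping libraries, and the closest were *MLXIP* and *ARRDC2* in A5-KO, at 4.94 and 4.76 TPM in 1 library each.

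**Figure D1:**
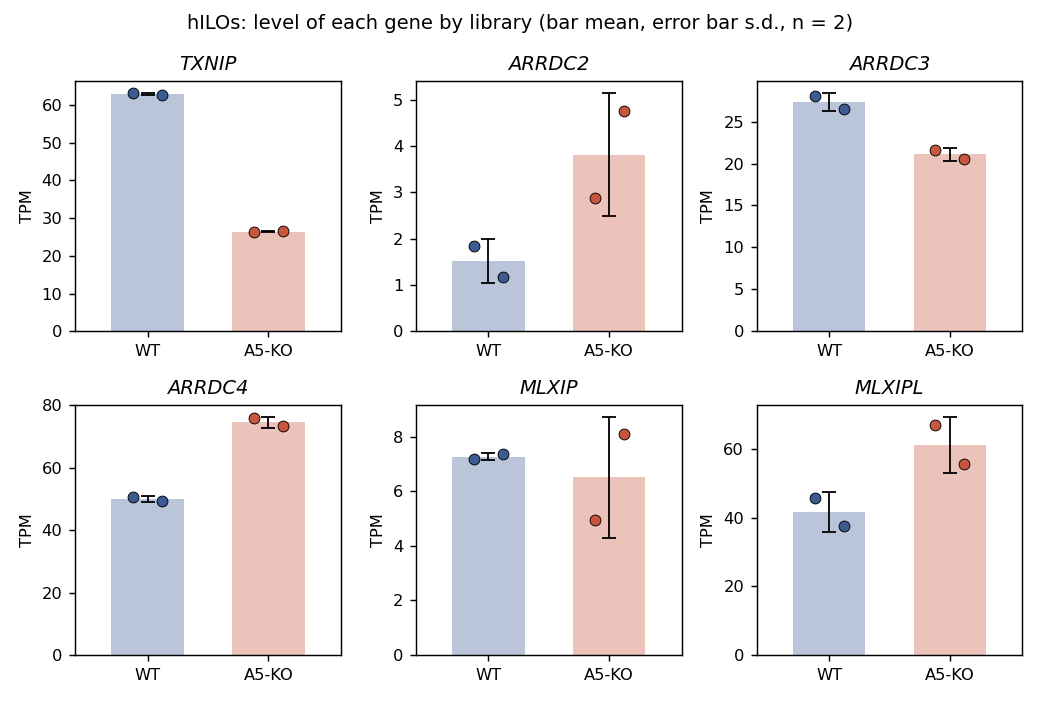
Level in TPM (y axis) of each of the 6 genes in WT and A5-KO hILOs (x axis); points are libraries, bars the mean and error bars the s.d. of 2 libraries. For *TXNIP* the WT points (63.1 and 62.7 TPM) lie far above the A5-KO points (26.4 and 26.5 TPM), while both A5-KO points of *ARRDC4*, *ARRDC2* and *MLXIPL* lie above both WT points.

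Genes around this pathway showed mixed patterns in hILOs. Of 18 known MondoA and ChREBP targets other than the members, 16 were tested, 1 was called higher and 2 lower, with a median of 0.08. *KHK*, which encodes fructokinase, rose by 0.66 (s.e. 0.08, limma adjusted *p* = 0.020). *RGS16*, a G protein regulator, fell from 126 TPM in both WT libraries to 33.7 and 36.2 TPM (-1.82, s.e. 0.06, adjusted *p* = 0.0021), and *G6PC1*, a catalytic subunit of glucose-6-phosphatase, fell from a mean of 13.8 to 3.23 TPM (-1.81, s.e. 0.13, adjusted *p* = 0.0071). These targets therefore moved in both directions.

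Genes of glucose uptake and phosphorylation were called in 1 direction only. Of 10 such genes 8 were tested, 4 were called lower and 0 higher, and their median was -0.58. Hexokinase 1 (*HK1*) fell by 1.31 (19.8 to 7.41 TPM), hexokinase 2 (*HK2*) by 1.02 (25.0 to 11.9 TPM), and the glucose transporter gene *SLC2A3* by 1.00 (11.3 to 5.11 TPM). The transporter gene *SLC2A1*, named as the fourth after its values were seen, fell by 0.64 (290 to 186 TPM) and was no longer called with median-of-ratios scaling. Means are given for these 4 genes, and their limma adjusted *p* ran from 0.0042 to 0.017. For the thioredoxin and peroxiredoxin genes, limma called 0 of 11, with 6 at an unadjusted *p* under 0.05 and a median of -0.11. Of all 17300 genes, 3238 were lower and 2106 higher at that unadjusted level. *TXN* itself, the binding partner of TXNIP, had 372 to 399 TPM in the WT libraries and 344 to 346 TPM in the A5-KO libraries (-0.16, limma adjusted *p* = 0.099).

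Markers of other cells moved between the same hILO groups. The 10 endocrine markers summed to 35091 to 37382 TPM (WT) against 26932 to 28146 TPM for A5-KO, with 4 called lower and 1, *NEUROD1*, higher. The 10 hepatic markers summed to 20658 to 21010 TPM (WT) against 36000 to 36270 TPM for A5-KO, with 4 called higher and 2 lower. The mesenchymal markers summed to 11.5 to 19.4 TPM and 49.4 to 54.5 TPM, with 3 of 5 tested called higher. No gene of these lists was at 0 in a whole group. Their part in the differences of *TXNIP* and *ARRDC4* was not tested.

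In PPs before Act D, none of the 6 genes was called by limma, edgeR or DESeq2, where limma called 2.7% of 13911 genes in either direction. At an unadjusted *p* under 0.05 there were 2, *TXNIP* and *MLXIP*. Of all 13911 genes, limma had 1531 higher and 1153 lower at that level. With a block for replicate number, limma adjusted *p* was 0.0052 for *TXNIP* and 0.0034 for *MLXIP*, and both stayed under the 1.5-fold limit. *TXNIP* was at 154 and 155 CPM in WT and 137 and 123 CPM in A5-KO, with both A5-KO libraries below both WT libraries and a difference of -0.25 on the log2(CPM + 1) scale (95% interval -0.43 to -0.07, limma adjusted *p* = 0.14). *ARRDC4* was at 68.9 and 62.8 CPM in WT and 66.3 and 69.1 CPM in A5-KO. Its groups overlapped and the interval of the difference ran from -0.16 to 0.24.

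*MLXIP* was at 42.6 and 35.4 CPM in WT and 49.6 and 52.0 CPM in A5-KO, without overlap (0.38, 95% interval 0.13 to 0.63, limma adjusted *p* = 0.10). *ARRDC3* was at 12.4 and 10.6 CPM in WT and 13.5 and 11.5 CPM in A5-KO (0.11, adjusted *p* = 0.74). *ARRDC2* was at 3.56 and 4.15 CPM in WT and 2.87 and 3.22 CPM in A5-KO (-0.26, adjusted *p* = 0.47). Neither of the last 2 comparisons passed, and only the libraries of *ARRDC3* overlapped. *MLXIPL*, at 2.33 and 2.26 CPM in WT and 3.03 and 2.2 CPM in A5-KO (0.12, adjusted *p* = 0.78), rested on few reads.

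Per kilobase of the canonical transcript, *TXNIP* led in PPs as well, at 52.9 and 53.3 CPM per kb in WT. It was followed by *ARRDC4* at 17.0 and 15.5, *MLXIP* at 5.08 and 4.22, *ARRDC3* at 2.93 and 2.5, *ARRDC2* at 1.42 and 1.66, and *MLXIPL* at 0.715 and 0.696 CPM per kb. No neighbours in this order overlapped. The paralogous glucose sensors changed places between the stages. Per length, *MLXIPL* stood at 0.109 to 0.314 times *MLXIP* in the 16 PP libraries and at 5.11 to 13.6 times *MLXIP* in the 4 hILO libraries. The tables were normalised separately, so this is a description of ratios within libraries.

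The hepatic markers summed to 1159 to 1219 CPM in WT PPs and 1968 to 2003 CPM in A5-KO PPs at 0 h, with 6 of 10 called higher and 0 lower. The mesenchymal markers summed to 120 to 128 CPM in WT and 211 to 215 CPM in A5-KO, with 4 of 7 tested called higher. Of 8 pancreatic progenitor markers tested, 1, *ONECUT1*, was called lower and 0 higher. Their part in the levels of the 6 genes was not tested. Of the tested genes around the pathway, limma called 0 of 14 targets (2 at an unadjusted *p* under 0.05; edgeR and DESeq2 each called 1, *RGS16*), 0 of 9 glucose uptake genes (4; edgeR and DESeq2 called 0) and 0 of 11 thioredoxin and peroxiredoxin genes (3; edgeR and DESeq2 called 0).

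**Figure D2:**
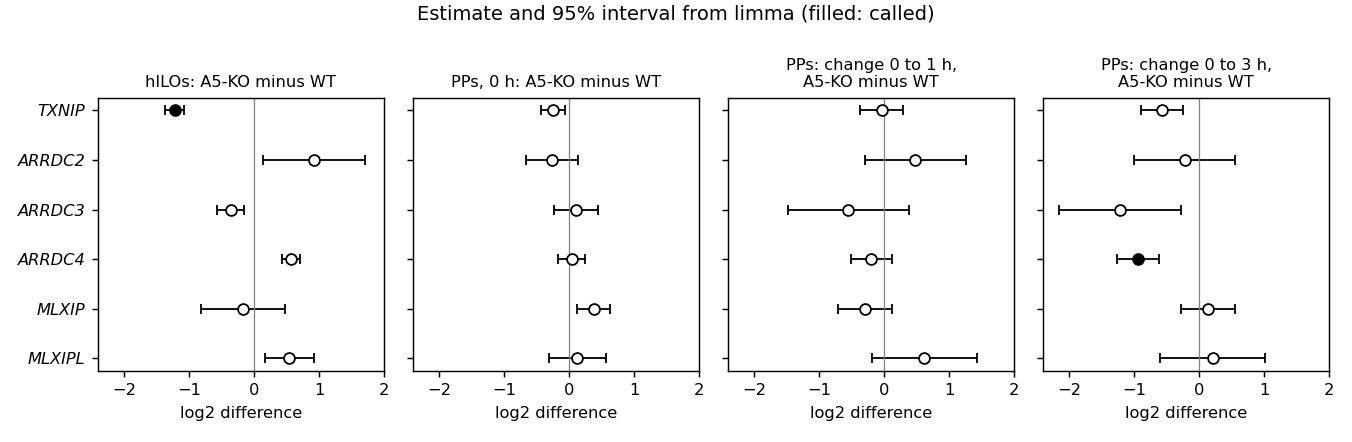
limma estimate and 95% interval of the A5-KO minus WT difference (x axis, log2 scale) for each gene (y axis) in hILOs, in PPs at 0 h, and in the change of PPs from 0 to 1 h and from 0 to 3 h; filled points passed both limits. *TXNIP* passed in hILOs and *ARRDC4* in the change to 3 h, and no gene passed in PPs at 0 h or in the change to 1 h.

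Under Act D, *ARRDC4* ended lower in A5-KO PPs than in WT PPs by 3 h, and *TXNIP* and *ARRDC3* had estimates in the same direction. From 1 to 3 h *TXNIP* and *ARRDC4* fell in A5-KO and did not pass the test in WT. *TXNIP* in WT measured 154 and 155 CPM before Act D, 127 and 128 after 1 h, 89.9 and 109 after 2 h, and finally 108 and 125. The A5-KO libraries had 137 and 123 CPM, then 108 and 102, 79.9 and 78.3, and 72.1 and 59.6. At 1 h the share left was 82.8% ± 0.142 in WT and 80.5% ± 3.18 in A5-KO (mean ± s.d., *n* = 2), and at 3 h 75.4% ± 7.97 and 50.6% ± 6.79. Both A5-KO libraries lay below both WT libraries at every time.

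*ARRDC4* in WT measured 68.9 and 62.8 CPM before Act D, 52.9 and 51.6 after 1 h, 40.0 and 49.0 after 2 h, and finally 51.1 and 53.9. The A5-KO libraries had 66.3 and 69.1 CPM, then 45.3 and 48.5, 40.0 and 40.3, and 30.0 and 26.4. The levels started together and at 3 h the libraries of the genotypes were wide apart. The share left at 3 h was 79.7% ± 3.04 in WT and 41.7% ± 3.75 in A5-KO (*n* = 2).

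*ARRDC3* had the smallest share left at 3 h in both genotypes. Its WT libraries measured 12.4 and 10.6 CPM before Act D, 9.35 and 7.45 after 1 h, 4.27 and 6.95 after 2 h, and finally 6.32 and 8.88. The A5-KO libraries had 13.5 and 11.5 CPM, then 5.9 and 6.43, 4.85 and 3.8, and 5.08 and 2.31. Its replicates were far noisier than those of *TXNIP*, with shares left at 3 h of 66.0% ± 15.7 in WT and 29.6% ± 15.7 in A5-KO (*n* = 2).

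**Figure D3:**
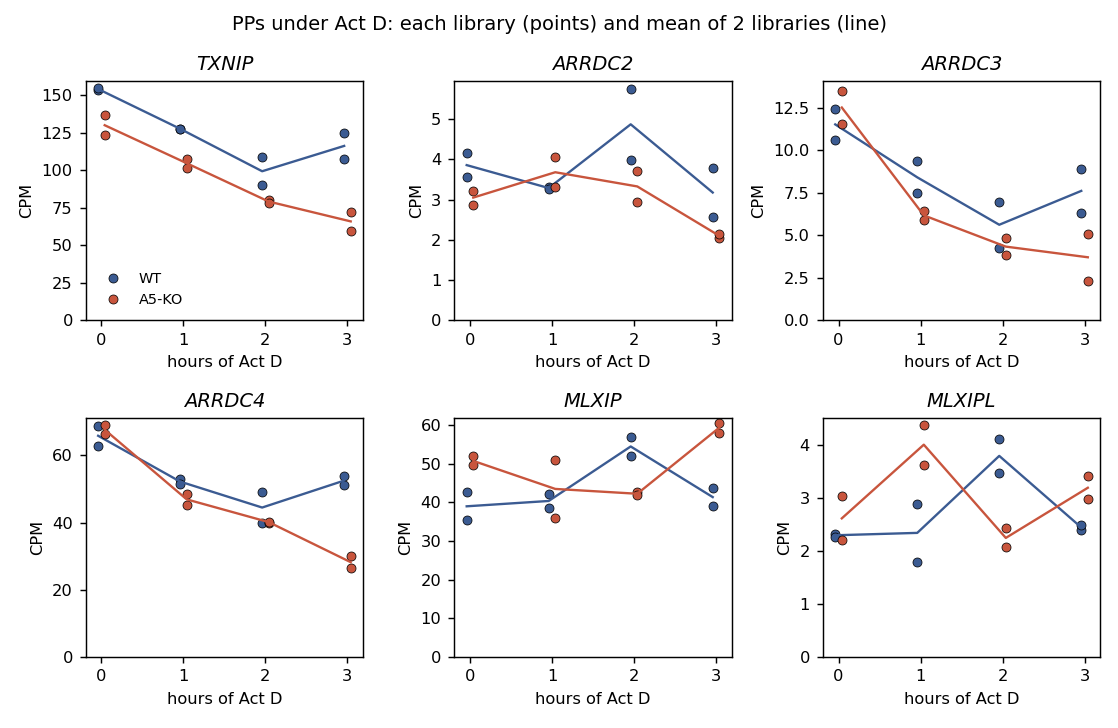
CPM (y axis) against hours of Act D (x axis) for the 6 genes in PPs; points are the 16 libraries, coloured by genotype and set slightly apart for visibility, and lines join the means of 2 libraries. At 3 h both A5-KO libraries of *TXNIP*, *ARRDC2*, *ARRDC3* and *ARRDC4* lie below both WT libraries. The same holds for *TXNIP* at every time, for *ARRDC3* and *ARRDC4* at 1 h, and for *ARRDC2* at 0 h and 2 h. It also holds for *MLXIP* and *MLXIPL* at 2 h. Both A5-KO libraries of *MLXIP* are at their highest at 3 h, at 60.7 and 58.1 CPM.

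From 0 to 1 h in WT, limma, edgeR and DESeq2 called none of the 6 genes, while limma called 15.4% of 13620 genes lower. Unadjusted *p* was under 0.05 for 2 of them in limma, *TXNIP* (-0.27, adjusted *p* = 0.084) and *ARRDC4* (-0.33, adjusted *p* = 0.033, under the 1.5-fold limit), and for none in edgeR or DESeq2. Of the 13620 genes, limma had 3950 lower and 661 higher at that unadjusted level, so 2 members in 6 is near that share. In A5-KO over the same hour 1 gene was called lower, *ARRDC3* (-1.01, s.e. 0.31, limma adjusted *p* = 0.021), where 17.1% of all genes were called lower. That call was lost without A5-KO replicate 1 at 0 h (-0.89, adjusted *p* = 0.16), replicate 1 at 1 h (-0.95, adjusted *p* = 0.086) or replicate 2 at 1 h (-1.07, adjusted *p* = 0.078). *ARRDC4* (-0.53, adjusted *p* = 0.0016) and *TXNIP* (-0.31, adjusted *p* = 0.036) passed the limit on *p* and not that on size. *MLXIPL*, on few reads, was at 0.61 (limma adjusted *p* = 0.095). It was called higher with median-of-ratios scaling (0.75), edgeR (0.78) and DESeq2 (0.77).

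No member changed in WT from 1 to 3 h by these tests. None was called in WT by limma, edgeR or DESeq2, and none had an unadjusted *p* under 0.05. Of all genes limma called 0.661%, 77 higher and 13 lower, and *ALKBH5* was among the lower. *ARRDC4* differed by 0.01 (95% interval -0.22 to 0.23) and *TXNIP* by -0.14 (-0.37 to 0.09). In A5-KO 3 of the 6 genes fell, against 16.9% of all genes. *ARRDC4* fell by 0.73 (s.e. 0.11, limma adjusted *p* = 1.7e-04), *TXNIP* by 0.67 (s.e. 0.11, adjusted *p* = 3.5e-04) and *ARRDC2* by 0.78 (s.e. 0.26, adjusted *p* = 0.036). *ARRDC3*, at -0.82, missed the limit (adjusted *p* = 0.060). *MLXIP* lay on the other side, at 0.47 (s.e. 0.14, adjusted *p* = 0.019), under the 1.5-fold limit, and was called higher with median-of-ratios scaling (0.60) and without A5-KO replicate 1 at 1 h (0.72).

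Of these 3 calls, that of *ARRDC4* was made in all 22 alternatives for that interval. *TXNIP* passed on *p* in all 22, but was under the 1.5-fold limit with median-of-ratios scaling (-0.54), edgeR (-0.55) and DESeq2 (-0.54). Without A5-KO replicate 2 at 3 h *TXNIP* was at -0.54, below the 1.5-fold limit, and without A5-KO replicate 1 at 3 h *ARRDC3* was at -1.38 and called. Without replicate 2 at 3 h *ARRDC3* was at -0.27. The *ARRDC2* call rested on 68 to 141 reads a library and was lost without any 1 of the 4 A5-KO libraries at 1 and 3 h. It was also lost in limma with no filter (adjusted *p* = 0.082) or median-of-ratios scaling (0.065), and in edgeR (0.068) and DESeq2 (0.070).

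The next comparisons set the change since 0 h in A5-KO against that in WT. At 1 h limma, edgeR and DESeq2 called 0 of 6 genes, with 0 at an unadjusted *p* under 0.05, where limma called 0.235% of all genes in either direction; the interval for *TXNIP* was -0.36 to 0.29 and for *ARRDC4* -0.52 to 0.13. At 2 h limma and edgeR called 0, with 2 and 1 at an unadjusted *p* under 0.05, and DESeq2 called *MLXIP*, where limma called 0.844% of all genes. Over all genes at 2 h, limma had 718 higher and 1759 lower at an unadjusted *p* under 0.05. *MLXIP* stood out at 2 h by its WT libraries, at 52.2 and 56.9 CPM against 42.7 and 41.8 CPM in A5-KO (-0.75, limma adjusted *p* = 0.081).

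At 3 h, *ARRDC4* had fallen further in A5-KO than in WT (-0.94 on the log2 scale, s.e. 0.15, limma adjusted *p* = 0.0016). *TXNIP* differed by -0.57 (s.e. 0.15, adjusted *p* = 0.017), which passed on *p* and was just under the 1.5-fold limit; it was called without WT replicate 1 at 3 h (-0.68), A5-KO replicate 2 at 0 h (-0.65) or A5-KO replicate 1 at 3 h (-0.71). *ARRDC3* had the largest estimate and the widest interval (-1.22, 95% interval -2.16 to -0.29, adjusted *p* = 0.064), and moved to -1.78 (adjusted *p* = 0.0093) without A5-KO replicate 1 at 3 h and to -0.67 (adjusted *p* = 0.31) without replicate 2. *ARRDC2* (-0.22), *MLXIP* (0.14) and *MLXIPL* (0.21) did not pass. The background was 14.8% of all genes called lower in A5-KO (2021 lower and 94 higher, or 1439 and 419 with median-of-ratios scaling), so 1 member in 6 is near it. The pancreatic progenitor markers moved in the same comparison, with 7 of 8 tested called lower. Their summed level at 3 h was 413 to 417 CPM in WT and 104 to 121 CPM in A5-KO. Its part in the result for *ARRDC4* was not tested. In WT this sum had been lower after 1 h, at 333 to 380 CPM. WT hepatic markers summed to 1223 to 1243 CPM after 1 h, then 1560 to 1708 CPM after 3 h. More genes were detected in the 3 h WT libraries (23640 and 24073) than in the 1 h ones (22739 and 22464). *ALKBH5* fell over these hours, as given above. The 3 h result for *ARRDC4* thus rests in part on these WT libraries, and the cause of their levels was not tested.

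All genes together shifted in this comparison, with a median of -0.19 that median-of-ratios scaling brings to 0.00048. Against that shift *ARRDC4* was at -0.75 (limma adjusted *p* = 0.0020) and remained called in all 22 alternatives (-1.03 to -0.75), and *TXNIP* was at -0.38 (adjusted *p* = 0.053). With the change from 1 to 3 h as the measure, a comparison added after the data were seen, *ARRDC4* differed by -0.74 (s.e. 0.15, adjusted *p* = 0.0036) and *TXNIP* by -0.53 (s.e. 0.15, adjusted *p* = 0.023), and 16.3% of all genes were called lower. *ARRDC4* was the 1 member called there, and it was under the 1.5-fold limit with median-of-ratios scaling (-0.56), edgeR (-0.57) and DESeq2 (-0.56). *MLXIP* differed by 0.43 (adjusted *p* = 0.13) and was called higher with median-of-ratios scaling (0.61), DESeq2 (0.59) and without A5-KO replicate 1 at 1 h (0.68).

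A straight line over all 4 times gave an apparent decay rate, the loss in log2 CPM per hour. In WT a line hides a fall to 2 h followed by a higher mean at 3 h. The mean share left in WT at 2 h and 3 h was 64.4% and 75.4% for *TXNIP* and 67.5% and 79.7% for *ARRDC4*. For *ARRDC3* it was 48.7% and 66.0%. For *TXNIP* the slope was -0.16 in WT and -0.34 in A5-KO, that is an apparent half-life of 6.24 h (95% interval 3.86 to 16.2) and 2.98 h (2.30 to 4.22). For *ARRDC4* it was -0.12 and -0.40, with apparent half-lives of 8.24 h (4.46 to 54.0) and 2.49 h (1.98 to 3.35). *ARRDC3* had the shortest, 4.11 h in WT, with no upper bound, and 1.67 h in A5-KO (1.18 to 2.82). In A5-KO these 3 slopes passed the test, where 37.1% of all genes were called downward, and in WT none did (limma adjusted *p* 0.35 to 0.38), where 0.11% were, so the WT times are estimates only. The times are relative to all other transcripts in the library, since CPM has a fixed total.

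The slope was called steeper in A5-KO for 1 of 6 genes, *ARRDC4* (-0.28 per hour, s.e. 0.07, limma adjusted *p* = 0.046), against 2.61% of all genes. The call stood close to the limit and 20 of 25 alternatives ended it, 14 of them by leaving out 1 library, while its direction held in all 25. *TXNIP* was called as well without WT replicate 1 at 2 h. The slope difference was -0.18 for *TXNIP* (adjusted *p* = 0.13) and -0.36 for *ARRDC3* (adjusted *p* = 0.21). *MLXIP* and *MLXIPL* had no downward slope. Their slopes were 0.07 and 0.10 per hour in WT and 0.07 and 0.01 in A5-KO, each with an interval that included 0.

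*ARRDC2*, *MLXIP* and *MLXIPL* had other courses. *MLXIP* stayed between 35.4 and 60.7 CPM in every library and was highest in the A5-KO libraries of 3 h, with 60.7 and 58.1 CPM. *MLXIPL* ranged from 1.79 to 4.38 CPM. *ARRDC2* ranged from 2.05 to 5.76 CPM, and the A5-KO libraries of 3 h were its lowest. The MondoA target *KLF10*, a short-lived transcription factor mRNA, was the 1 of 14 tested targets called lower at 3 h in A5-KO relative to WT (-2.16, s.e. 0.34, limma adjusted *p* = 0.0014). Its WT libraries had 36.5 and 48.7 CPM before Act D and 18.8 and 22.5 CPM after 3 h, and its A5-KO libraries 39.1 and 44.3 CPM and then 3.29 and 6.05 CPM. For the glucose uptake genes limma, edgeR and DESeq2 called 0 of 9, with 1 at an unadjusted *p* under 0.05 in each.

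The ratio of *TXNIP* to *ARRDC4* moved little in PPs. WT libraries had ratios of 2.23 and 2.46 before Act D and 2.1 and 2.32 after 3 h, and A5-KO libraries 2.06 and 1.79 and then 2.4 and 2.26. Over all 16 libraries it lay between 1.79 and 2.48. Both A5-KO libraries were below both WT libraries before Act D and after 1 h and 2 h, and the genotypes overlapped after 3 h. At 0 h the log2 difference between the genotypes in PPs was -0.29 (exact permutation *p* = 0.33, two-sided).

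**Figure D4:**
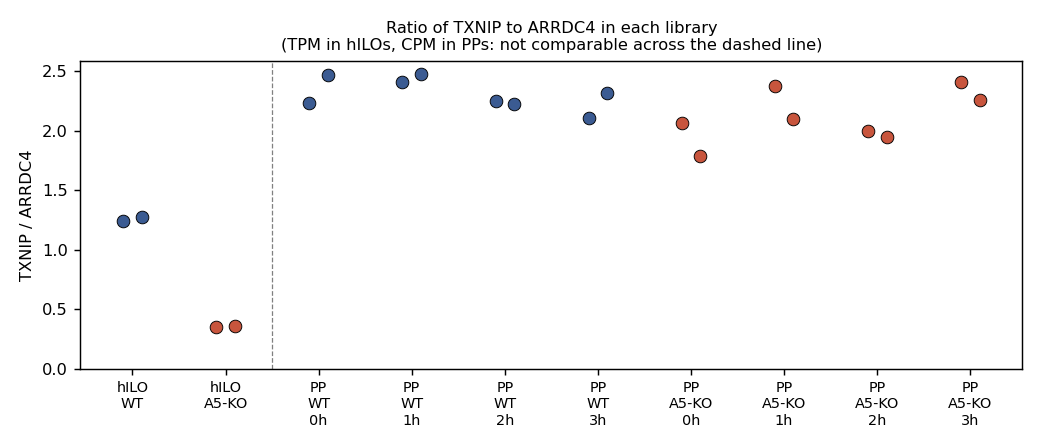
Ratio of *TXNIP* to *ARRDC4* (y axis) in each of the 20 libraries by group (x axis), from TPM in hILOs and CPM in PPs, which are not comparable with each other. In hILOs the WT libraries are at 1.24 and 1.28 and the A5-KO libraries at 0.348 and 0.36, and in PPs all libraries lie between 1.79 and 2.48.

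Across the 16 PP libraries, which share the design of genotype and time, *TXNIP* correlated with *ARRDC4* at Pearson's r = 0.94 and with *ARRDC3* at 0.93, on log2(CPM + 0.1). Among 10571 genes at 5 CPM or more, the closest to *TXNIP* were *DLG3* (0.98), *MEIS2* (0.98) and *RGL1* (0.98), and those closest to *ARRDC4* were *MLLT3* (0.99), *GPBP1* (0.98) and *E2F6* (0.98). *ARRDC3* was closest to *PIBF1* (0.97), *PKN2* (0.96) and *ZNF322* (0.96). *MLXIP* correlated negatively with *TXNIP* (r = -0.51), and its nearest genes were *TRAF3* (0.92), *POLR2A* (0.91) and *EIF4G1* (0.91). Such values across a shared time course are a description.

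The transcripts of the members differ in sequence features that the choice of genes did not use. In the canonical transcripts, the AU-rich pentamer ATTTA occurs 12 times in *ARRDC3*, 7 times in *ARRDC4* and 2 times in *TXNIP*, 3 times in *MLXIP*, and not in *ARRDC2* or *MLXIPL*. Per kilobase this is 2.83 in *ARRDC3*, 1.72 in *ARRDC4* and 0.689 in *TXNIP*, against a median of 0.952 over 20033 coding transcripts. GGACT, a common form of the m6A consensus, occurs 2 times in *ARRDC3* and *ARRDC4* and 1 time in *TXNIP*, which is 0.472, 0.492 and 0.344 per kilobase against a median of 0.925. *ARRDC2*, with 5 sites in 2501 bases, has the most per kilobase (2.0), and *MLXIP* and *MLXIPL* have 1.07 and 0.923. The counts are of letters, and the m6A mark itself was not analysed here.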

How the data were processed

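RNA-seq of hILOs and Act D-treated PPs was used. For hILOs, the authors trimmed reads with fastp, aligned them to hg38 with HISAT2 (2.1.0 in the submitters' processing notes) and deposited TPM per gene. For PPs, the authors deposited CPM per gene. The spike-in conversion of the study is not part of these values, so CPM shows each gene only relative to its library. All CPM values were whole multiples of 1 read (within 0.05 read), which gave back the reads. Of the identifiers, 60370 (TPM) and 60369 (CPM) matched a symbol.

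limma 3.58.1 (R 4.3.3, eBayes with trend) was fitted on log2(TPM + 1) in hILOs, on log2(CPM + 1) in PPs at 0 h, and on log2(CPM + 0.1) for slopes and times, keeping genes that averaged 1 or more. A call needed a Benjamini-Hochberg adjusted *p* below 0.05 over all genes and, except for slopes, a change over 1.5-fold. The fold changes understate those of low genes. Alternatives were other pseudocounts, no filter, other scalings, fewer times, a replicate block, each library left out, and edgeR 4.0.16 and DESeq2 1.42.0 on recovered reads. Precision is limited by 2 libraries per condition. Libraries of the same replicate number and different genotype had correlations of deviations of -0.11 to 0.044, except in PPs at 0 h (0.29). The main fits did not pair them.

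The members, gene lists and tests were chosen with earlier results of these data known. Named genes are the 6 members, *ALKBH5*, at most 3 called genes per list and direction, and the 3 genes most correlated with each member at 5 CPM or more. *TXN*, *ARRDC1*, *MLX*, *SLC2A1*, *PDX1*, *SOX9* and, in PPs, *RGS16* fall outside this rule and were chosen after their values were seen. Loci, exons and transcripts came from GENCODE release 44 and promoters from RefSeq, both on GRCh38. The code was tested on simulated data.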

Additional observations from a re-analysis of the deposited data

Results flagged for a closer look

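*ARRDC4* was noted because its change in relative level under Act D differed between the genotypes in a direct test. The difference was -0.94 in the change from 0 to 3 h, -0.74 in the change from 1 to 3 h and -0.28 per hour in the slope (limma, log2 scale). The value of the slope was the least secure, as given above. Mean *ARRDC4* in WT was 52.2 CPM after 1 h and 52.5 CPM after 3 h, so it did not keep falling there.

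*ARRDC2* was noted because its libraries moved in opposite directions at the stages. Both A5-KO libraries were above both WT libraries in hILOs (0.92) and below them in PPs at 0 h (-0.26). The difference between the stages was not tested, and neither value passed its own test.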

How the results depend on the processing

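The 6 genes gave 1205 results on single genes that kept direction and side of the limit, 39 that lost and 30 that gained the call, and 52 that turned in sign; of the counts of members called 173 kept within 1.5 times and 48 did not. The cause of these moves was not tested. In hILOs 2 members instead of 1 were called with quantile normalization or median-of-ratios scaling. For the slope 0 instead of 1 were called with a pseudocount of 1, no filter, median-of-ratios scaling, edgeR, 0 and 1 h alone, or the replicate block, and 2 with 0 and 3 h alone or without 2 h. From 0 to 1 h in A5-KO 0 instead of 1 were called with no filter. With median-of-ratios scaling, edgeR and DESeq2 there were 2, where *MLXIPL* was added as higher. From 1 to 3 h in A5-KO 1 instead of 3 were called with edgeR and DESeq2. Of the genotype differences in change, DESeq2 called 1 instead of 0 at 2 h, and edgeR 0 instead of 1 from 1 to 3 h, the interval added after the data were seen. Leaving out 1 library at a time gave 0 to 2 members for the slope, 0 to 1 from 0 to 1 h in A5-KO, 1 to 4 from 1 to 3 h in A5-KO, and for the genotype difference in change 0 to 1 at 2 h, 1 to 3 at 3 h and 1 to 3 from 1 to 3 h. A library left alone in its group was assumed to vary like the others.

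Signs turned only for values that had not passed. The slope difference turned for *ARRDC2* with 0 and 1 h alone (0.48), for *MLXIPL* with 0 and 1 h alone (0.62), 0 and 3 h alone (0.069) and without 2 h (0.030), and for *MLXIP* with median-of-ratios scaling (0.066), edgeR (0.057), DESeq2 (0.058), 0 and 3 h alone (0.046) and without 2 h (0.070). In WT from 0 to 1 h *MLXIPL* turned with median-of-ratios scaling (0.12), edgeR (0.175) and DESeq2 (0.173). In WT from 1 to 3 h the same 3 settings gave -0.038, -0.039 and -0.039 for *ARRDC4* and -0.012, -0.0095 and -0.0088 for *MLXIP*, and at 2 h the genotype difference in change of *TXNIP* was 0.062, 0.069 and 0.060. Leaving out 1 library gave these ranges. In hILOs it was -0.48 to 0.14 for *MLXIP*. In untreated PPs it was -0.026 to 0.11 for *ARRDC4* and -0.043 to 0.29 for *MLXIPL*. For the slope it was -0.064 to 0.042 for *MLXIP*. In WT from 0 to 1 h it was -0.079 to 0.19 for *MLXIP* and -0.34 to 0.32 for *MLXIPL*. In WT from 1 to 3 h it was -0.35 to 0.20 for *ARRDC2*, -0.39 to 0.088 for *ARRDC3*, -0.031 to 0.047 for *ARRDC4*, -0.049 to 0.12 for *MLXIP* and -0.23 to 0.43 for *MLXIPL*. In A5-KO from 0 to 1 h it was -0.49 to 0.0066 for *MLXIP*. For the difference in change at 1 h it was -0.11 to 0.034 for *TXNIP*. At 2 h it was -0.21 to 0.063 for *TXNIP* and -0.46 to 0.067 for *ARRDC2*. At 3 h it was -0.50 to 0.052 for *ARRDC2* and -0.017 to 0.43 for *MLXIPL*.

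Over all genes, the replicate block called 674 genes in hILOs against 1174 and 631 in untreated PPs against 375. For the slope it called 0 against 364. The labels tie libraries of the same number by that number alone. The block ended or made no other call among the members' counts. With no filter 330, 164 and 0 genes were called. The slope called 96 genes with median-of-ratios scaling, 870 with DESeq2, 173 with a pseudocount of 1, 54 with 0 and 1 h alone, 3029 with 0 and 3 h alone and 726 without 2 h. Median-of-ratios scaling moved the split of higher and lower calls in hILOs from 467 and 707 to 572 and 624, and at 3 h from 94 and 2021 to 419 and 1439. The depth of 2 libraries per condition limits *ARRDC2* and *MLXIPL* in PPs most, and that of hILOs is unknown.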

Other observations

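Partner genes of the pathway gave further values in PPs under Act D. Of the 10 genes of the MLX, MAX and MYC network, limma called 5 lower at 3 h in A5-KO relative to WT and 0 higher, with a median of -0.62 beside -0.19 over all genes. Limma called 14.8% of all genes lower there. With median-of-ratios scaling and with edgeR 3 of the 10 were called, and with DESeq2 4. *MYC* measured 184 and 289 CPM in the WT libraries and 215 and 302 CPM in the A5-KO libraries before Act D, and 37.6 and 47.1 CPM and 4.33 and 7.44 CPM after 3 h (-3.01, s.e. 0.54, limma adjusted *p* = 0.0024). *MYCN* differed by -2.60 (adjusted *p* = 0.0052) and *MGA*, a MAX-binding repressor, by -1.27 (adjusted *p* = 0.0054). *MLX*, the dimer partner of MondoA and ChREBP, fell from 1 to 3 h in A5-KO (-0.63, adjusted *p* = 0.0049). In hILOs 3 of these 10 genes were called lower in A5-KO, *MXI1* (-0.85), *MYCN* (-0.82) and *MYC* (-0.73), and 0 higher; *MXI1* was not called with median-of-ratios scaling.

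Among the NEDD4 family ligase genes, whose products alpha-arrestins bring to their targets, 8 of 9 were tested and 2 were called lower at 3 h in A5-KO relative to WT, *HECW2* (-1.25, adjusted *p* = 0.013) and *SMURF2* (-0.85, adjusted *p* = 0.0050). Of all genes 14.8% were called lower in that 3 h comparison. In hILOs limma called 0 of these 8 ligase genes, with 0 at an unadjusted *p* under 0.05. Of the other arrestin genes, 3 of 6 were tested and limma called 0 at either stage, with 0 at an unadjusted *p* under 0.05 in hILOs and in PPs at 0 h. *ARRDC1* was at 17.2 to 17.4 TPM in WT hILOs and 16.5 to 19.7 TPM in A5-KO hILOs.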
